A study of Mus musculus with 24 samples.

Results

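The 10 genes described here make up the peptide presentation pathway of MHC class I in the mouse heart. They are the heavy chains H2-K1 and H2-D1, their light chain B2m, the peptide transporter Tap1 and Tap2, tapasin (Tapbp), the immunoproteasome subunits Psmb8, Psmb9 and Psmb10, and the transactivator Nlrc5. They were chosen as a named list whose symbols were matched to the Ensembl identifiers of the count table, and all 10 were found among its 41388 genes. The RNA came from pieces of 24 hearts, 1 piece per heart, of male wild type BALB/cAnNCrl mice (Balb/c in the labels) immunized at 8 to 10 weeks of age. EAM mice were given 100 µg of an alpha-myosin heavy chain peptide in supplemented complete Freund's adjuvant on days 0 and 7, with pertussis toxin on day 0. Control mice were given the same adjuvant with PBS in place of the peptide, and the same toxin, so each comparison here is between hearts that share the adjuvants. There were 4 EAM and 4 control hearts at each of day 10 (D10), day 15 (D15) and day 21 (D21). EAM stands for experimental autoimmune myocarditis. Where it could, the study sequenced EAM hearts that showed inflammation, so the EAM groups are not a random draw of immunized mice. At D10, however, the study found no EAM mouse with raised leukocytes (CD45+ cells) in the heart or raised cardiac troponin I.

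MHC class I molecules present short peptides from a cell's own proteins to CD8+ T cells. The proteasome cuts these peptides, TAP carries them into the endoplasmic reticulum, and tapasin helps to load them onto a heavy chain paired with beta-2 microglobulin. Interferon gamma is known to raise the whole pathway and to replace the catalytic proteasome subunits Psmb5, Psmb6 and Psmb7 by their inducible relatives Psmb8, Psmb9 and Psmb10. Cardiomyocytes are known for low class I levels at rest, and leukocytes for high ones.

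Reads counted on genes lay between 15814863 and 24980864 in the 24 libraries. Of these, 20 libraries carried one library code, and the 4 EAM libraries of D21 carried another, so at D21 the code and EAM cannot be told apart. Levels are given as CPM, the counts of a gene scaled to the usual common library size after TMM normalisation. The cardiomyocyte markers Myh6, Tnnt2, Tnni3, Actc1 and Myl2 had reads in every group, and their summed level was between 20190 and 25610 CPM in the 12 control hearts. The labels do not tie hearts to litters or cages, so the tests measure the spread between these hearts. In bulk RNA, fewer cells of a type and less RNA per cell cannot be told apart.

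Of the 10 genes, 7 lie in the MHC region of chromosome 17 between bases 33915899 and 35267499 of GRCm38. B2m is on chromosome 2 (122147686 to 122153083), and Psmb10 (105935735 to 105938444) and Nlrc5 (94434356 to 94527272) are both on chromosome 8. Psmb9 (34181987 to 34187764, minus strand) and Tap1 (34187553 to 34197225, plus strand) are transcribed away from each other and their annotated ends overlap. The study counted only reads on a single genomic feature, and whether the counting used the strand is not stated in the sources used here, so reads in that overlap may be missing from both genes. The reference genome carries the class I alleles of C57BL/6, whereas BALB/c mice have the d haplotype, which can lower the share of heavy chain reads that align. In the reference annotation, 6.15% of the 75-base stretches of H2-D1 transcripts and 1.12% of those of H2-K1 also occur in another gene, most often H2-Q1 and H2-D1, and 1.36% of those of Tapbp do. The coding sequences of H2-K1 and H2-D1 were 88.3% identical. Levels of both heavy chains, and to a small extent of Tapbp, are therefore less certain than those of B2m, Tap1, Tap2, Psmb8, Psmb9, Psmb10 and Nlrc5, for which 0 such stretches were found.

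The promoters of H2-K1 and B2m are shown, and a stretch of that of H2-D1, because these 3 genes encode the chains of the class I molecule. The sequences are RefSeq's, on GRCm38.p6, and lie before the transcription start that RefSeq gives. H2-K1 has a second, overlapping RefSeq window, which is not shown. In the other annotation used here, GENCODE, the windows of H2-D1, Tap1, Tapbp, Psmb8 and Psmb9 lie wholly within annotated exons, so none of these is shown in full. Capitals mark letters that match one of the motifs searched on both strands. These were the interferon-stimulated response element core in 2 spacings (GAAANNGAA and GAANNGAAA), the GAS element (TTCNNNGAA), the NF-kB site, the X2 core (TGACG) and the Y box (CCAAT). The second spacing was added after the windows had been read.
H2-K1, chr17:34000348-34000597, minus strand: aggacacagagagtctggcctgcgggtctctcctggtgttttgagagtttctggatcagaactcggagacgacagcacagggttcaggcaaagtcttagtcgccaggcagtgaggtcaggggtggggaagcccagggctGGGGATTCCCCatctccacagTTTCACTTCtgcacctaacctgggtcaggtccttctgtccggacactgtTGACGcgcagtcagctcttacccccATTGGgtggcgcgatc
B2m, chr2:122147437-122147685, plus strand: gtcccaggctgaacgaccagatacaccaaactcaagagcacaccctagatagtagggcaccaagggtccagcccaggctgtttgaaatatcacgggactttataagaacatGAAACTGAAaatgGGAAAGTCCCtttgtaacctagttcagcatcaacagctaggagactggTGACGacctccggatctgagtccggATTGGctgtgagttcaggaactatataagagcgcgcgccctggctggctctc

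In H2-K1, overlapping NF-kB matches lay 101 to 111 bases before the start, the response element in its second spacing 82 to 90 bases before it, the X2 core 37 to 41 and the Y box 12 to 16. B2m held the response element in its first spacing at 131 to 139 bases, an NF-kB match at 117 to 126, the X2 core at 74 to 78 and the Y box at 49 to 53. H2-D1 had matches of the same 4 motifs in the same order, and a 30-base stretch over its NF-kB and response element matches was identical to that of H2-K1 at 29 of 30 bases.
H2-K1, chr17:34000429-34000458, minus strand: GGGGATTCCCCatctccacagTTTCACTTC
H2-D1, chr17:35262923-35262952, plus strand: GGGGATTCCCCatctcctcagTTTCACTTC

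Of the 10 genes, 8 had a promoter in the RefSeq table, all but Tap2 and Nlrc5. In the 250 bases before the start, the NF-kB site was found in 3 of these 8, against 7.25% of all 32851 promoters in the table. The X2 core was found in 5 of 8 (17.8% of all promoters) and the Y box in 6 of 8 (33.8%). The promoters of Tap1 and Psmb9 overlap, so their shared X2 core and shared Y box count for both. The first spacing of the response element was found in B2m alone (7.13% of all promoters), the second in H2-K1 and H2-D1 (6.31%), and GAS in Psmb8 alone (7.02%). A match is a description of the letters, and no match says only that these letters are not in the window.

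All 10 genes rose in EAM hearts at D15, the day with the largest fold changes. The 4 EAM hearts of a day were set against its 4 controls by the quasi-likelihood test of edgeR, and a gene was called where the Benjamini-Hochberg adjusted p over all genes was under 0.01 and the change at least 2-fold. At D15 the log2 fold changes lay between 1.63 (B2m) and 3.54 (Tap1), with a median of 2.06 against 0.016 over all 15693 genes tested. All 10 were called higher, against 18.1% of all genes, and in all 10 the 4 EAM hearts lay above the 4 controls, against 34.5%. Leukocyte markers were also higher, the summed level of Ptprc, Coro1a, Laptm5, Cd53 and Cd52 being 1141 to 1487 CPM in EAM hearts of D15 and 95.5 to 117 CPM in their controls. The summed cardiomyocyte markers were 5344 to 14490 CPM and 20190 to 23930 CPM in the same hearts. Macrophage markers (Csf1r, Adgre1, Cd68, Lyz2, Fcgr1) summed to 2546 to 3660 CPM with EAM and 417.7 to 466.5 CPM without, and T cell markers (Cd3d, Cd3e, Cd4, Cd8a, Cd8b1) to 27.2 to 40.9 CPM and 1.41 to 2.24 CPM. Endothelial markers (Pecam1, Cdh5, Kdr, Tie1, Tek) summed to 655.6 to 727.5 CPM and 965.3 to 1282 CPM, and of these markers Kdr was called lower, with a log2 fold change of -1.24 (SE 0.11, adjusted p = 9.35e-06), while Pecam1 had -0.30 (SE 0.07, adjusted p = 0.00318) and the other 3 lay between -0.88 and -0.70. Cd8a, the coreceptor of T cells that read class I, was at 4.08, 2.21, 3.33 and 5.05 CPM in the EAM hearts and 0.313, 0.295, 0.207 and 0.0589 CPM in the controls of D15. The part of the change in cell make-up in the rise of the 10 genes was not tested.

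At D10 none of the 10 genes was called by edgeR's quasi-likelihood test, and neither was any of the 15029 genes tested (0%). All 10 had a log2 fold change above 0, between 0.68 and 2.13 with a median of 0.94, and all 10 had an unadjusted p under 0.05, against 9.49% of all genes that were higher at that limit. The adjusted p was 0.328 or 0.329 for each of the 10. In 0 of the 10 did EAM and control hearts of D10 separate fully, against 4.41% of all genes. The likelihood ratio test, DESeq2 and limma-voom also called 0 of the 10, while calling 45, 48 and 0 of all genes higher. Against all 12 controls 4 of the 10 were called, against 4.09% of all genes. Leukocyte markers summed to 170 to 925 CPM in the EAM hearts of D10 and 124 to 228 CPM in the controls. At D21, 5 were called higher, against 4.3% of all genes: H2-K1, H2-D1, B2m, Psmb8 and Psmb10. The log2 fold changes of D21 lay between 1.06 (Tapbp) and 2.51 (Psmb8), with a median of 1.60, and 7 of the 10 genes had all EAM hearts above all controls, against 17.8%. Leukocyte markers summed to 268 to 1147 CPM in the EAM hearts of D21 and 85.3 to 155.5 CPM in the controls. Macrophage markers summed to 1068 to 3589 CPM and 362.3 to 573.8 CPM there, and T cell markers to 10.96 to 38.4 CPM and 1.44 to 2.714 CPM. The endothelial sums were 680.3 to 1123 CPM with EAM and 1185 to 1414 CPM without. Those of cardiomyocyte markers overlapped, at 10440 to 25410 CPM and 21280 to 22770 CPM. The D21 calls depended on single libraries, since 0 of the 10 genes were called when any one control, EAM replicate 1 or EAM replicate 2 was left out, when 0 to 19 of all genes were called, 10 when EAM replicate 3 was left out (9.8% of all genes) and 4 when EAM replicate 4 was (2.01%). Without EAM replicate 4 the log2 fold changes of D21 were 0.96 for Nlrc5, 1.51 for Tap1, 0.77 for Tap2 and 0.69 for Tapbp, against 1.65, 2.11, 1.21 and 1.06 with it.

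**Figure D1:**
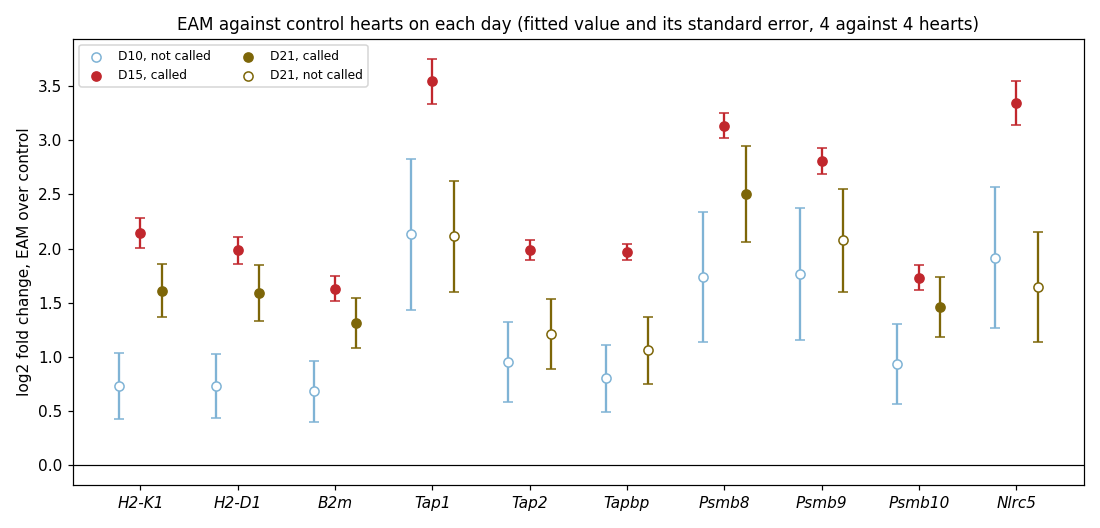
Log2 fold change of EAM over control hearts (y axis) for each of the 10 genes (x axis) at D10, D15 and D21, as fitted from 4 against 4 hearts with bars of 1 standard error; filled points passed an adjusted p of 0.01 and a 2-fold change. Every gene is highest at D15, where all 10 are filled, and Tap1, Nlrc5 and Psmb8 stand above the other genes there.

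The heavy chains of the classical class I molecules, H2-K1 and H2-D1, hold the peptide that T cells read, and both rose at D15 and D21. H2-K1 (ENSMUSG00000061232) lies at bases 33996017 to 34000347 of chromosome 17 on the minus strand. At D15, H2-K1 was at 242, 237, 172 and 247 CPM in EAM hearts and 60.2, 50.3, 45.4 and 52.6 CPM in controls, in order of replicate number. At D10, H2-K1 was at 145, 49.7, 94.2 and 63.01 CPM in EAM hearts against 64.4, 51.7, 47.96 and 46.3 CPM. At D21, H2-K1 was at 207, 161, 105 and 238 CPM against 56.6, 63.9, 50.6 and 66.5 CPM. The EAM hearts of D15 and D21 all lay above their controls, with D15 replicate 3 and D21 replicate 3 the lowest, and those of D10 overlapped them. The log2 fold change of H2-K1 was 2.14 (SE 0.14, adjusted p = 1.06e-06) at D15 and 1.61 (SE 0.25, adjusted p = 0.00556) at D21.

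H2-D1 (ENSMUSG00000073411) encodes the other heavy chain, at 35262730 to 35267499 on the plus strand of chromosome 17. It was at 1036, 1042, 774 and 1020 CPM in the EAM hearts of D15 and 281, 234, 238 and 254 CPM in their controls. At D10 the values of H2-D1 were 673, 244, 437 and 273 CPM with EAM and 284, 249.6, 229 and 209 CPM without. At D21 they were 1053, 736, 490.1 and 1028 CPM and 264, 289, 231 and 336 CPM. The groups did not overlap at D15 and D21 and overlapped at D10, where replicates 1 and 3 were the high hearts. In the fit H2-D1 had a log2 fold change of 1.98 (SE 0.13, adjusted p = 1.12e-06) at D15 and 1.59 (SE 0.26, adjusted p = 0.0062) at D21.

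B2m (ENSMUSG00000060802) encodes beta-2 microglobulin, the light chain that all class I heavy chains need to reach the cell surface, and it had the smallest fold change of the 10 genes at D15. It was at 1022, 966, 806 and 962 CPM in EAM hearts of D15 and 361, 297, 279 and 309 CPM in controls. At D10, B2m was at 779, 294, 570.1 and 349 CPM and 361, 302, 294 and 277 CPM, and at D21 at 963, 809.6, 562 and 1053 CPM and 297, 376, 275 and 442 CPM. Every EAM heart of D15 and D21 was above its controls, while 2 EAM hearts of D10 lay among theirs. For B2m the log2 fold change was 1.63 (SE 0.12, adjusted p = 2.61e-06) at D15 and 1.31 (SE 0.23, adjusted p = 0.00747) at D21.

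Tap1 and Tap2 form the transporter that moves peptides into the endoplasmic reticulum, and of these partners Tap1 had the larger fold change on every day. Tap1 (ENSMUSG00000037321) was at 267, 219, 264 and 275 CPM in the EAM hearts of D15 against 29.5, 19.3, 15.1 and 26.2 CPM. At D10, Tap1 was at 236, 22.9, 81.8 and 28.4 CPM in EAM hearts and 28.03, 21.8, 20.4 and 13.5 CPM in controls. At D21, Tap1 was at 122, 93.9, 37.7 and 258 CPM and 24.6, 32.1, 25.7 and 39.2 CPM. Replicate 1 of D10 and replicate 4 of D21 reached the range of D15, whereas replicate 2 of D10 and replicate 3 of D21 lay among the controls. The log2 fold change of Tap1 was 3.54 (SE 0.20, adjusted p = 5.92e-07) at D15, and its 2.11 (SE 0.51, adjusted p = 0.0175) at D21 did not pass the limit.

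Tap2 (ENSMUSG00000024339), whose product pairs with that of Tap1, lies at 34203527 to 34216321 of chromosome 17 on the plus strand. It was at 129, 114, 133 and 145 CPM in EAM hearts and 36.6, 29.99, 32.2 and 36.3 CPM in controls of D15. At D10 the values were 129.5, 39.6, 67.1 and 36.4 CPM and 36.99, 34.3, 36.3 and 32.4 CPM, and at D21 81.0, 69.9, 49.8 and 159 CPM and 37.8, 40.8, 36.4 and 44.03 CPM. Groups did not overlap at D15 or at D21, though D21 replicate 3 was close to the highest control. Fitted over the 8 hearts of a day, Tap2 had a log2 fold change of 1.99 (SE 0.10, adjusted p = 1.84e-07) at D15 and 1.21 (SE 0.33, adjusted p = 0.0246) at D21, the latter not called.

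Tapbp (ENSMUSG00000024308), at 33915899 to 33929292 of chromosome 17 on the plus strand, encodes tapasin, which holds the empty class I molecule at the transporter. At D15 it was at 435, 386, 387 and 443 CPM in EAM hearts and 107, 104, 109 and 113 CPM in controls. At D10, Tapbp was at 363, 133, 203 and 132 CPM and 132, 123, 115 and 103 CPM, and at D21 at 255, 204, 135 and 421 CPM and 127, 126, 112 and 133 CPM. The controls of Tapbp were the least variable of the 10 genes, with a coefficient of variation of 9.17% over 12 hearts, and the EAM hearts of D21 spread from just above the highest control to the D15 level. For Tapbp the log2 fold change was 1.97 (SE 0.08, adjusted p = 5.05e-08) at D15, and at D21 it was 1.06 (SE 0.31, adjusted p = 0.0315), not called.

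**Figure D2:**
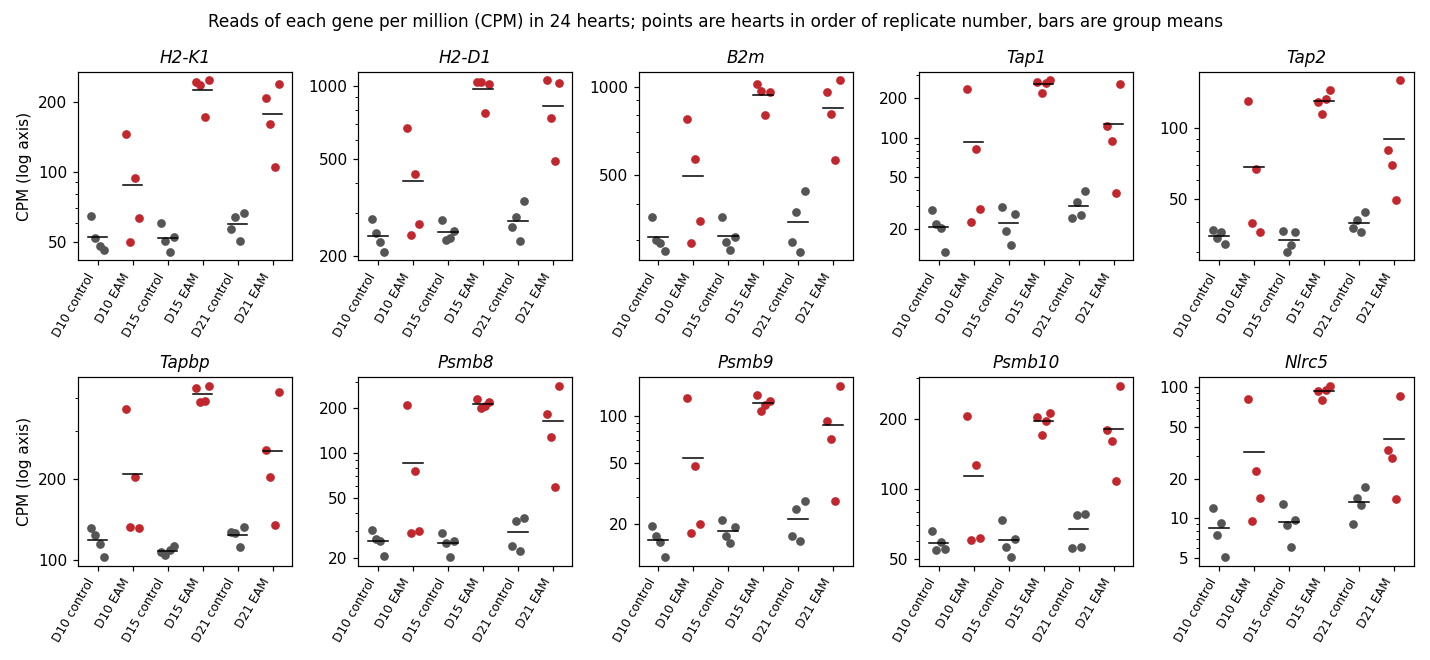
CPM (y axis, log scale, a separate scale for each gene) of the 10 genes in each of the 24 hearts by group (x axis), grey for control and red for EAM; each point is 1 heart in order of replicate number and each bar a group mean. The 4 EAM hearts of D15 stand above all controls in every panel, and at D10 replicate 1 is the highest EAM heart in all 10 panels.

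Psmb8, Psmb9 and Psmb10 encode the catalytic beta subunits of the immunoproteasome. Psmb8 (ENSMUSG00000024338) lies at 34197721 to 34201454 of chromosome 17, between Tap1 and Tap2. Psmb8 was at 233, 202, 206 and 219.7 CPM in the EAM hearts of D15 and 29.4, 24.97, 20.2 and 25.8 CPM in controls. At D10, Psmb8 was at 211, 29.2, 76.2 and 30.3 CPM with EAM and 30.7, 26.6, 25.8 and 20.4 CPM in controls. At D21, Psmb8 was at 183, 129, 59.7 and 284 CPM and 23.99, 34.95, 22.2 and 37.1 CPM. No EAM heart of D15 or D21 overlapped its controls, and D21 replicate 4 was higher than every heart of D15. The log2 fold change of Psmb8 was 3.14 (SE 0.12, adjusted p = 4.05e-08) at D15 and 2.51 (SE 0.45, adjusted p = 0.00729) at D21.

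Psmb9 (ENSMUSG00000096727) is the subunit gene beside Tap1. It was at 137, 108, 119 and 126 CPM in EAM hearts of D15 and 21.1, 16.7, 14.9 and 19.1 CPM in controls. At D10, Psmb9 was at 131, 17.5, 47.8 and 19.8 CPM against 19.2, 16.5, 15.2 and 12.2 CPM, and at D21 at 93.1, 71.4, 28.3 and 159 CPM against 16.7, 25.01, 15.5 and 28.3 CPM. At D21 the lowest EAM heart, replicate 3, was just under the highest control, at 28.26 against 28.31 CPM. Psmb9 had a log2 fold change of 2.81 (SE 0.12, adjusted p = 1.08e-07) at D15 and of 2.08 (SE 0.48, adjusted p = 0.0149) at D21, not called.

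Psmb10 (ENSMUSG00000031897), which lies outside the MHC region, had the smallest fold change of the immunoproteasome genes at each day. It was at 203, 171, 197 and 212 CPM in EAM hearts of D15 and 73.5, 56.3, 51.3 and 60.9 CPM in controls. At D10 the hearts had 205, 60.8, 126 and 61.5 CPM and 66.2, 55.01, 59.6 and 55.3 CPM, and at D21 179, 160.1, 109 and 277 CPM and 56.1, 77.7, 56.7 and 78.2 CPM. EAM and control hearts did not overlap at D15 and D21. Psmb10 had a log2 fold change of 1.73 (SE 0.12, adjusted p = 1.71e-06) at D15 and 1.46 (SE 0.28, adjusted p = 0.00893) at D21.

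Nlrc5 (ENSMUSG00000074151) encodes a transactivator known to act on class I promoters, the counterpart of Ciita for class II. It was at 94.1, 79.7, 95.1 and 103 CPM in EAM hearts of D15 and 12.9, 8.91, 6.06 and 9.66 CPM in controls. At D10, Nlrc5 was at 81.6, 9.63, 22.995 and 14.4 CPM and 12.04, 7.53, 9.27 and 5.09 CPM, and at D21 at 33.2, 28.98, 14.1 and 86.01 CPM and 8.997, 14.3, 12.6 and 17.3 CPM. Its EAM hearts stood clear of the controls at D15 alone, and at D21 replicate 4 was far above the other 3. Nlrc5 had a log2 fold change of 3.35 (SE 0.20, adjusted p = 8.44e-07) at D15 and of 1.65 (SE 0.51, adjusted p = 0.0375) at D21, not called. Over the 12 control hearts Nlrc5 had the largest coefficient of variation of the 10 genes, 34.1%.

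Levels can be compared between genes only per length, so CPM was divided by the length of the principal transcript in kilobases. In the 12 control hearts B2m came first with 375 CPM per kb (SD 59.6), followed by H2-D1 with 123 (SD 16.6), Psmb10 with 47.5 (SD 7.16), Tapbp with 40.4 (SD 3.70) and H2-K1 with 33.8 (SD 4.58). Psmb8 with 16.5, Psmb9 with 13.6, Tap2 with 10.5, Tap1 with 8.33 and Nlrc5 with 1.37 CPM per kb made up the lower part. Psmb10 was above Tapbp in 10 of 12 hearts, and the pairs Tapbp and H2-K1, Psmb9 and Tap2, and Tap2 and Tap1 kept this order in 11 of 12. With the length of all exons together in place of the principal transcript, Tap2 came before Psmb8 and Psmb9. In the 4 EAM hearts of D15, B2m was still first with 1092 CPM per kb (SD 108) and Nlrc5 last with 12.3 (SD 1.27). Tap1 with 86.7 CPM per kb stood above Tap2 with 37.8 in all 4 hearts, and Psmb10, Tapbp, H2-K1 and Psmb8 lay close together at 149, 142, 138 and 132, though with the length of all exons together they were at 115, 114, 76.3 and 63.6. Each of the neighbouring pairs Psmb10 and Tapbp, Tapbp and H2-K1, and H2-K1 and Psmb8 kept that order in 3 of 4 hearts, and Psmb9 was above Tap1 in 2 of 4. With the length of all exons together, Psmb9 came after Tap1 and Tap2 at D15.

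In each of 3 pairs of an immunoproteasome gene and its constitutive counterpart, every EAM heart of D15 had a higher ratio of the first to the second than every control of D15. This was measured as the log2 ratio of reads of Psmb8 to Psmb5, Psmb9 to Psmb6 and Psmb10 to Psmb7, pairs whose products take the same place in the particle, so it does not depend on the scaling between libraries. The ratio of Psmb8 to Psmb5 was 2.02, 1.67, 1.71 and 1.96 in EAM hearts of D15 and -1.27, -1.50, -1.67 and -1.53 in their controls. The lowest EAM heart was above the highest control. The zero of such a ratio has no meaning of its own, because the genes differ in length. For Psmb9 to Psmb6 the ratios of D15 were 0.33, 0.03, 0.16 and 0.40 with EAM and -2.54, -2.93, -2.997 and -2.74 without, and for Psmb10 to Psmb7 they were 0.49, 0.29, 0.40 and 0.79 and -1.33, -1.85, -1.91 and -1.76. At D15 the difference of the group means was 3.33 for Psmb8 to Psmb5, 3.03 for Psmb9 to Psmb6 and 2.21 for Psmb10 to Psmb7, each on the log2 scale.

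At D21 the ratio of Psmb8 to Psmb5 was 1.28, 0.62, -0.40 and 1.93 in EAM hearts and -1.41, -1.04, -1.38 and -0.57 in controls. That of Psmb9 to Psmb6 was -0.55, -0.94, -2.20 and 0.34 against -2.79, -2.41, -2.77 and -2.09, and that of Psmb10 to Psmb7 was -0.08, -0.41, -1.03 and 0.59 against -1.65, -1.30, -1.65 and -1.23. At D21 the groups overlapped in the Psmb9 pair, through EAM replicate 3, and were apart in the other two. Differences of the means at D21 were 1.96, 1.68 and 1.23 for the Psmb8, Psmb9 and Psmb10 pairs, and at D10 they were 1.22, 1.27 and 0.80. In an exact two-sided permutation test of 4 against 4 hearts, p was 0.0286, the smallest this design can give, for all 3 pairs at D15 and for the Psmb8 and Psmb10 pairs at D21. For the 4 other comparisons the exact p was 0.0571 or 0.0857. Adjusted over the 9 comparisons, the exact permutation p lay between 0.0515 and 0.0857, so none was under 0.05. The labels do not say that replicate numbers pair hearts, but the numbers were treated as pairs at D21, as described below. In the exact test made within numbers there, all 4 differences were above 0 in each pair of genes. Its p was 0.125, the smallest that 4 pairs allow. Without EAM replicate 1 the D10 differences of the Psmb8, Psmb9 and Psmb10 pairs were 0.62, 0.66 and 0.41 rather than 1.22, 1.27 and 0.80.

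**Figure D3:**
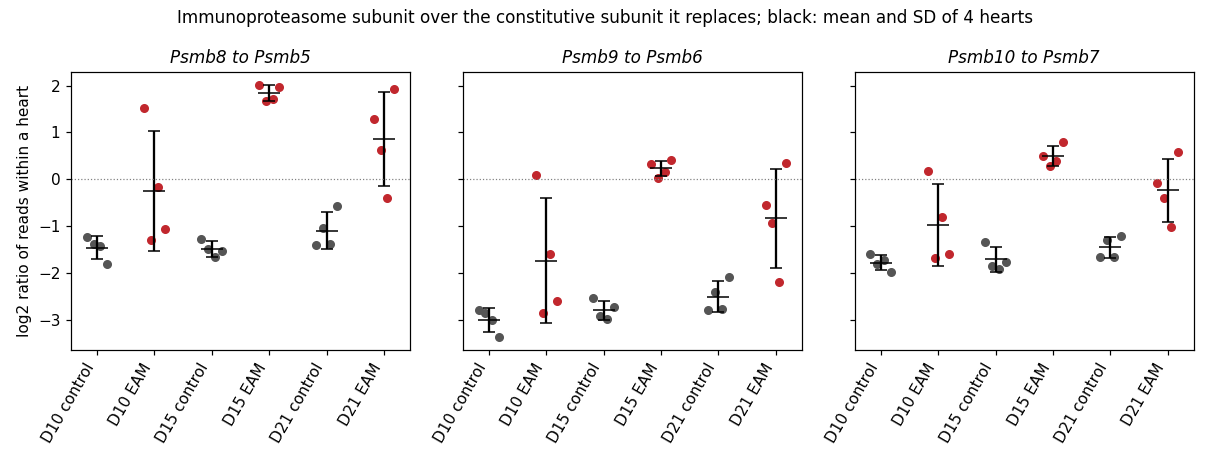
Log2 ratio of reads of an immunoproteasome gene to its constitutive counterpart (y axis) in each heart by group (x axis), for 3 gene pairs; grey points are control hearts, red points EAM hearts, and black bars the mean and SD of 4 hearts. All 4 EAM hearts of D15 lie above all control hearts in each panel.

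The constitutive subunits had small fold changes below 0 at D15. Psmb5 was at 57.2, 63.5, 63.1 and 56.4 CPM in EAM hearts of D15 and 71.2, 70.5, 64.3 and 74.8 CPM in controls, a log2 fold change of -0.19 (SE 0.07, adjusted p = 0.0273). Psmb6 had a log2 fold change of -0.22 (SE 0.06, adjusted p = 0.00867) and Psmb7 of -0.47 (SE 0.07, adjusted p = 3.10e-04), both under the 2-fold limit. With libraries scaled by total counts, which moves the median of all genes at D15 from 0.016 to 0.17, the fold changes of Psmb5, Psmb6 and Psmb7 were -0.038, -0.067 and -0.32. By edgeR's quasi-likelihood test 0 of these 3 were called at D15, although all 3 had an unadjusted p under 0.05, as did 76.4% of all genes in either direction. At D21 they had log2 fold changes above 0, of 0.35 (SE 0.09, adjusted p = 0.024) for Psmb5, 0.17 (SE 0.09, adjusted p = 0.143) for Psmb6 and 0.17 (SE 0.08, adjusted p = 0.122) for Psmb7, with 0 called by edgeR and 1 with an unadjusted p under 0.05. Of the 11 other subunits of the proteasome core, 0 were called at D15 and 3 had an unadjusted p under 0.05 in the same edgeR test. Their log2 fold changes lay between -0.10 (Psma6) and 0.64 (Psma5), and the signs of 4 of them, Psma1, Psma6, Psmb2 and Psmb3, turned with total counts, as did that of Psmb1 with the size factors of DESeq2. At D21, 0 of these 11 were called by edgeR, while 10 had an unadjusted p under 0.05, all of them higher, and 46.9% of all genes were under that limit in either direction.

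Of 9 genes for proteasome activators and assembly factors, 1 was called higher at D15, a share no larger than the 18.1% of all genes. This was Psme2, a subunit of the PA28 activator, at 149, 125, 149 and 139 CPM in EAM hearts and 54.01, 45.1, 42.8 and 48.3 CPM in controls, a log2 fold change of 1.60 (SE 0.09, adjusted p = 4.98e-07). Its partner Psme1 was at 238, 192, 236 and 228 CPM and 152, 149, 135 and 156 CPM, with a log2 fold change of 0.64 (SE 0.09, adjusted p = 1.12e-04), under the 2-fold limit. Psme4, another activator, had the lowest value of the list, -0.97 (SE 0.14, adjusted p = 2.25e-04).

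Of 7 genes of peptide loading and trimming, 3 were called higher at D15 and 0 lower, against 18.1% of all genes called higher. Tapbpl, a relative of tapasin, had a log2 fold change of 2.19 (SE 0.12, adjusted p = 4.41e-07), the chaperone Pdia3 of 1.30 (SE 0.07, adjusted p = 4.98e-07) and calreticulin (Calr) of 1.10 (SE 0.08, adjusted p = 2.75e-06). Erap1, which trims peptides in the endoplasmic reticulum, had 0.97 (SE 0.08, adjusted p = 4.74e-06), just under the 2-fold limit, and the peptidase Lnpep had the lowest value, -0.11 (SE 0.11, adjusted p = 0.388), whose sign turned with total counts. At D21, 0 of the 7 were called by edgeR's test, and 4 had an unadjusted p under 0.05, against 46.9% of all genes, with 3 of them higher and Lnpep lower (-0.68 (SE 0.12, adjusted p = 0.00695)).

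Heavy chains beyond H2-K1 and H2-D1 formed a list of 15 genes, of which 14 were tested at D15 and 12 were called higher, against 18.1% of all genes. H2-T23, which encodes the Qa-1 molecule, had a log2 fold change of 2.47 (SE 0.09, adjusted p = 4.17e-08), and H2-Q4 of 2.16 (SE 0.14, adjusted p = 9.85e-07). H2-Q7 had 2.14 (SE 0.20, adjusted p = 1.39e-05), and H2-M3, which presents formylated peptides, 2.08 (SE 0.14, adjusted p = 1.83e-06). Not called were H2-T24, with 0.66 (SE 0.15, adjusted p = 0.00294), and Mr1, which presents microbial metabolites, with -0.28 (SE 0.07, adjusted p = 0.00597). H2-M2, 1 of the 12, was at 0 to 0.104 CPM in the controls and 0.759 to 3.62 CPM in the EAM hearts of D15. Its control level is under the 3 reads per library (0.120 to 0.190 CPM) that a count of 0 allows. It therefore passed the read filter through the EAM hearts alone, so its call adds no support to the 12. The same filter applies to its test at D21, where its controls were at 0 to 0.0512 CPM. At D21, 7 of the 14 were called, against 4.3% of all genes. Without D21 control replicate 1, 2 or 3, 0 of all genes were called higher at D21 by edgeR's test, so none of these calls was kept. The study set aside reads that mapped to several places, and how many reads this takes from each gene of this list was not measured.

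Of 12 regulators and interferon gamma signalling genes, 6 were called higher at D15 and 0 lower, against 18.1% of all genes called higher. Ifng, the cytokine itself and 1 of the 6, was at 4.99, 2.38, 6.50 and 4.55 CPM in the EAM hearts of D15. In controls it was at 0, 0.0590, 0.0518 and 0 CPM, where 1 read at most was counted per library. Ifng therefore passed the read filter through the EAM hearts alone, so its call adds no support to the 6. The transcription factor Irf1 was at 288, 265, 353 and 330.3 CPM against 49.2, 44.5, 42.7 and 43.7 CPM, 2.82 (SE 0.10, adjusted p = 3.84e-08) on the log2 scale. Also called were Ciita, the class II transactivator, with 4.09 (SE 0.27, adjusted p = 1.43e-06), Socs1, an inhibitor of the pathway, with 4.86 (SE 0.24, adjusted p = 2.56e-07), and the kinase Jak2 with 1.44 (SE 0.06, adjusted p = 1.08e-07). The receptor chain Ifngr2 had the lowest value, -0.73 (SE 0.08, adjusted p = 3.60e-05). At D21 only Ciita of the 11 genes tested was called, with 3.03 (SE 0.51, adjusted p = 0.00665), against 4.3% of all genes, and that call too was lost without control replicate 1, 2 or 3. At D10, 0 of 11 were called by edgeR's quasi-likelihood test, 6 having an unadjusted p under 0.05, against 15.2% of all genes.

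**Figure D4:**
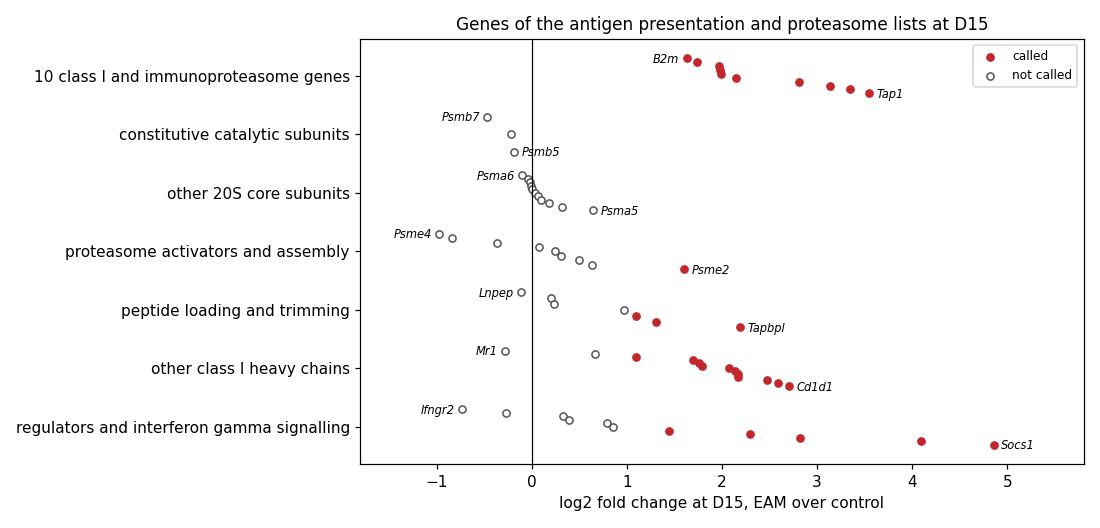
Log2 fold change of EAM over control hearts at D15 (x axis) for the tested genes of 7 lists (y axis), filled where called; the lowest and highest gene of each list is named, and Ifng and H2-M2 are left out because their controls held almost no reads. The 10 genes lie between 1.63 and 3.54, the constitutive and other core proteasome subunits between -0.47 and 0.64.

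At D10 and D21 the EAM hearts of a day differed from each other along most of the 10 genes at once. At D10, EAM replicate 1 was the highest of the 4 in 10 of 10 genes, with a median of 3.59 times the control mean, and its Ptprc level was 194 CPM. Replicate 3 also lay above all controls in 10 genes, with a median of 2.03 times, at 56.7 CPM of Ptprc. Replicates 2 and 4 lay above all controls in 2 and 3 genes, with medians of 1.10 and 1.15 times, at 27.7 and 41.6 CPM of Ptprc. Ptprc, which encodes CD45 of leukocytes, was at 38.6, 33.9, 28.5 and 23.9 CPM in the controls of D10. In replicate 1 of D10, the genes Tap1, Tap2, Psmb8, Psmb9, Psmb10 and Nlrc5 were within the range of the D15 EAM hearts, while H2-K1, H2-D1, B2m and Tapbp were below it. Without this heart the log2 fold change of Tap1 at D10 was 1.07 and that of H2-D1 0.38, against 2.13 and 0.73 with it.

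The EAM hearts of D15 were alike, with medians of 4.38, 4.34, 3.76 and 4.51 times the control mean and Ptprc between 243.5 and 305 CPM. At D21, replicate 4 was the highest in 9 of 10 genes (median 4.07 times, Ptprc 228.5 CPM) and replicate 3 the lowest in all 10 (median 1.47 times, Ptprc 48.9 CPM). Replicates 1 and 2 lay between them at 3.13 and 2.50 times, with 149 and 96.3 CPM of Ptprc. Replicate 4 of D21 was within the range of D15 in 5 genes and above it in B2m, Tap2, Psmb8, Psmb9 and Psmb10. At D10 and D21 the order of the 4 hearts by Ptprc was that of their medians, and at D15 it was not, since Ptprc was highest in replicate 1 and the median in replicate 4. Whether the genes follow the leukocytes was not tested.

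**Figure D5:**
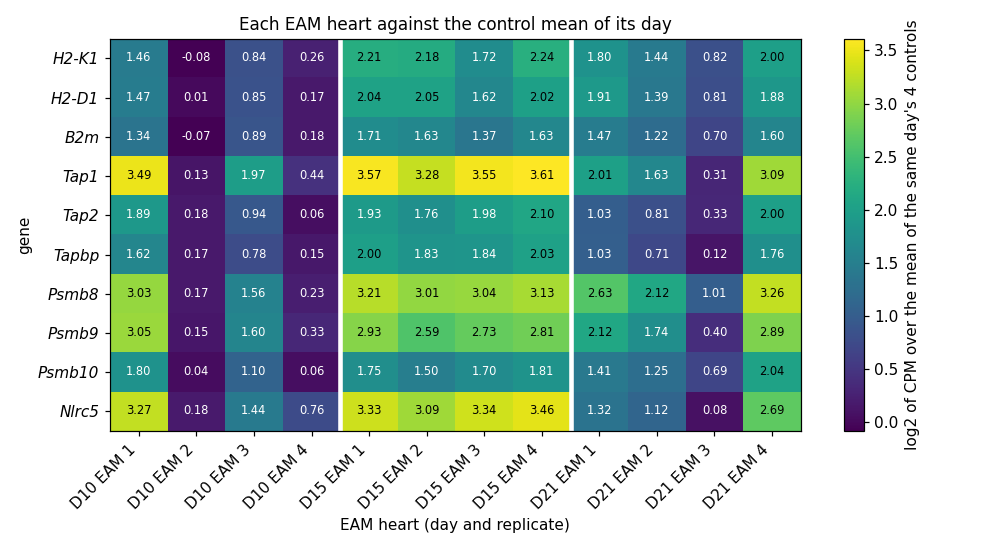
Log2 of the CPM of each of the 10 genes (rows) in each of the 12 EAM hearts (columns) over the mean of the 4 controls of the same day, as colour and as printed value. D10 replicates 2 and 4 and D21 replicate 3 form dark columns, the 4 hearts of D15 are alike, and Tap1, Psmb8, Psmb9 and Nlrc5 are the brightest rows of D15.

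The change of the EAM effect between days was tested in a fit of all 24 hearts. From D10 to D15 the effect was larger in all 10 genes, by 0.75 (Psmb10) to 1.38 (Nlrc5) on the log2 scale, with a median of 1.16 against -0.031 over all genes. H2-K1 was the only gene of the 10 called, by 1.36 (SE 0.36, adjusted p = 0.00582), against 5.3% of all genes with a larger effect, and 5 of the 10 had an unadjusted p under 0.05, against 23.8%. Without D10 EAM replicate 1 all 10 were called, against 12% of all genes, and Psmb10 and Nlrc5 had differences of 1.205 and 2.426. Without D10 EAM replicate 2 their differences were 0.543 and 1.081. H2-K1 lost its call without any one of 11 single libraries, with adjusted p up to 0.0145. From D15 to D21 the effect was smaller in all 10, by a median of -0.68, and 0 were called, against 0.968% of all genes with a smaller effect. Because the EAM libraries of D21 carried their own library code, this change and the code cannot be told apart. The lowest values were those of Nlrc5, -1.70 (SE 0.74, adjusted p = 0.0909), and Tap1, -1.43 (SE 0.78, adjusted p = 0.171). Tapbp followed with -0.90 (SE 0.39, adjusted p = 0.0846), whereas Psmb10 had -0.26 (SE 0.42, adjusted p = 0.659) and B2m -0.30 (SE 0.33, adjusted p = 0.502). By edgeR's quasi-likelihood test 2 of the 10, Tapbp and Nlrc5, had an unadjusted p under 0.05 with a smaller effect, against 17.4% of all genes, and DESeq2, the likelihood ratio test and limma-voom called 0.

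Between days the control hearts were compared in the same way. Of the 10 genes, 0 were called between D15 and D10 or between D21 and D10, where 0.0797% and 0.27% of all genes were called in either direction, and 0 had an unadjusted p under 0.05 in edgeR's quasi-likelihood test, against 6.8% and 12.4% of all genes. Median log2 differences were 0.025 and 0.19, and the largest was 0.65, in Nlrc5 from D10 to D21, where all 10 were above 0. From D10 to D15 the leukocyte and macrophage markers had median log2 differences of -0.73 and -0.63 in controls, where 0 of these 10 markers were called by edgeR's test and 1 had an unadjusted p under 0.05. Ptprc was at 16.8, 16.5, 17.8 and 20.7 CPM in the controls of D15, all below those of D10 given above.

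Over the 24 hearts the genes most like the 10 were picked by the Pearson correlation with their mean standardised log2(CPM + 1), as a description. The 10 genes with the highest r among 16308 were H2-T23, H2-DMa, Irgm1, Psme2, H2-Q4, Slamf8, Irf8, Tubb5, Cxcl9 and Gna15, with r between 0.987 and 0.993. With the group means removed, r for these was between 0.955 and 0.983, Psme2 having the highest. Among them Irgm1, an interferon-induced GTPase, and Cxcl9, a chemokine induced by interferon gamma, had r of 0.993 and 0.987. Slamf8, Tubb5 and Gna15 had r of 0.988, 0.987 and 0.987, so r did not set Irgm1 and Cxcl9 apart. Among the 45 pairs of the 10 genes themselves, r with the group means removed was 0.849 to 0.996, with a median of 0.947. Pairs of other genes were not measured for comparison. All these values come from the same 24 libraries and their scaling.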

How the data were processed

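The authors aligned reads to GRCm38 with HISAT2 2.0.4, removed duplicates with Picard and counted reads per Ensembl gene with featureCounts, per the labels and the study's methods. The deposited values are raw counts, and 92 spike-in rows with 0 reads were left out. Hearts were grouped by the labels. Genes that reached 10 reads in 4 or more of the fitted hearts were tested with edgeR 4.0.16 in R 4.3.3 (TMM scaling, quasi-likelihood test, two-sided, Benjamini-Hochberg adjustment over all genes), and called at an adjusted p under 0.01 with a 2-fold change. The SE is the log2 fold change divided by the root of F. Each day was fitted on its 8 hearts, and differences of effects on all 24. Alternatives used DESeq2 1.42.0, limma 3.58.1, other scalings, all 12 controls and left-out libraries. The steps were tested on simulated data. Ratios used log2((count + 0.5)/(count + 0.5)) with Python 3.11.15 and scipy 1.17.1, and figures matplotlib 3.10.9.

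The 10 genes, the lists and the cell markers were chosen with earlier results of these data known. Named genes were all 10, their constitutive counterparts, selected partners and regulators, and the extremes of each list at D15. Psma1, Psmb1, Psmb2, Psmb3, Pdia3, Socs1, Jak2 and H2-T24, which complete small counts, were named after their values were seen. The correlation of deviations between same-numbered EAM and control hearts was over 0.1 in all 4 pairs of D21, at 0.101, 0.171, 0.307 and 0.248. It was over 0.1 in only 2 of 4 pairs at D10, at 0.365 and 0.407, and in 0 of 4 at D15. On this limit the numbers were treated as pairs at D21 only, although the labels state no such pairing. Depth limits single low values, since 3 reads are 0.120 to 0.190 CPM. Of the regulators, 1 gene is counted but not reported here by name.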

Additional observations from a re-analysis of the deposited data

Results flagged for a closer look

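The EAM group of D15 held a low heart for both heavy chains. In replicate 3, H2-K1 was at 171.7 CPM and H2-D1 at 773.7 CPM, apart from the other 3 hearts, whose values lay between 236.6 and 246.6 CPM for H2-K1 and between 1020 and 1042 CPM for H2-D1. The gap to the nearest heart was 0.867 of the group's range for H2-K1 and 0.919 for H2-D1, above Dixon's 95% critical value for 4 values. Of 60 groups of 4 hearts examined over the 10 genes, 2 met this criterion, no more than the about 1 in 20 that chance alone gives. H2-K1 and H2-D1 had an r of 0.981 with the group means removed, so the 2 are not separate events. The light chain B2m was also lowest in this heart, at 805.6 CPM, whereas Tap1 was at 263.5 CPM and Nlrc5 at 95.1 CPM there, within the values of the other 3 hearts.

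The EAM effect on H2-K1 differed between days, being larger at D15 than at D10 by 1.363 on the log2 scale (SE 0.36, adjusted p = 0.00582 with edgeR's quasi-likelihood test). Of the other 9 genes, 0 passed the same limit in this test, against 5.3% of all genes called with a larger effect. Among these 9, 4 had an unadjusted p under 0.05 in this test, against 23.8% of all genes with a larger effect. Nlrc5 had a larger difference than H2-K1, 1.382, without being called. The call of H2-K1 was lost without any one of 11 single libraries. DESeq2, the likelihood ratio test and limma-voom each called 2 of the 10, and 1313, 1249 and 826 of all genes.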

How the results depend on the processing

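Direction was kept in every alternative for all 10 genes at each day, and all 10 were called at D15 under each of the 18 alternatives. At D10, 4 genes were called with all 12 controls and 0 under the others. At D21, 5 were called as reported, 10 with DESeq2, 10 with the likelihood ratio test, 10 with all 12 controls, 10 at an adjusted p under 0.05 with no fold limit, 2 with limma-voom, and 0 to 10 when 1 library was left out. For the larger effect at D15 than at D10, 1 gene was called as reported, 2 with DESeq2, the likelihood ratio test or limma-voom, 4 at an adjusted p under 0.05 with no fold limit, and 0 to 10 with 1 library left out. For the smaller effect at D21, 0 were called as reported, and 0 to 1 with 1 library left out, Tapbp without D21 EAM replicate 4. With the replicate block (hearts paired by number) 4 genes were called for the larger effect at D15, and no other count of the 10 changed. Against all 12 controls the D10 differences of log2 ratios were 1.10 (Psmb8 pair), 1.04 (Psmb9 pair) and 0.67 (Psmb10 pair), and that of the Psmb9 pair at D21 was 1.94. The causes were not tested.

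Over all genes, the higher calls at D10 were 0 as reported, 45 with the likelihood ratio test, 48 with DESeq2, 1 with the replicate block and 636 with all 12 controls. At D15 they were 2839, and 5991 at an adjusted p under 0.05 with no fold limit (the looser limit). At D21 they were 657, against 1356, 1364 and 80 with the likelihood ratio test, DESeq2 and limma-voom, 1588 with all 12 controls and 2867 at the looser limit. With 1 library left out they were 0 to 1480. Larger effects at D15 numbered 865, against 1313 with DESeq2, 1335 with the replicate block, 3171 at the looser limit and 475 to 1961 with 1 library left out. Smaller effects at D21 numbered 158, against 251 with DESeq2 or the likelihood ratio test, 245 with total counts, 83 with the block and 1737 at the looser limit. With 1 library left out these smaller effects numbered 82 to 457. Total counts moved the share of genes called at D15 that were higher from 58.4% to 67.3%.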
